A study of Mus musculus with 2 samples.

Results

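The mitochondrial carriers of the Slc25 family were followed across the myeloid cells of damaged muscle, in wild-type mice and in mice that lack *Gata3* in cells expressing *Cx3cr1*. The members were every gene row whose symbol starts with Slc25, with the related uncoupling protein *Ucp2* left out. There were 41 such rows among the 14371 genes listed in either library, 40 in each library and 39 in both. *Slc25a31* was listed in the Wt library alone and *Slc25a34* in the Gata3KO library alone. The tables list only genes with a unique molecular identifier (UMI, 1 counted transcript) in at least 5 cells of a library.

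There were 2 libraries of droplet single-cell RNA sequencing of 3' transcript ends. The Wt library came from C57BL/6 animals, and in the Gata3KO library the animals carried floxed *Gata3* together with Cre under control of *Cx3cr1*. In both, the tibialis anterior muscle was taken 4 days after an injection of 50 µl of 10 µM cardiotoxin, a venom toxin that destroys muscle fibres. Cells were sorted as viable by Zombie aqua, positive for the leukocyte protein CD45 and the myeloid protein CD11b, and negative for Ly6G of neutrophils. Cre acts in every cell that expresses *Cx3cr1*, dendritic cells included, and the number, age and sex of the mice behind each library are not stated in the sources used here.

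Carriers of this family are small proteins of the mitochondrial inner membrane, built from a repeated pair of membrane helices, that exchange metabolites between the cytosol and the matrix. The ADP/ATP carriers and the phosphate carrier feed ATP synthase, others move citrate, malate, aspartate, glutamate, acylcarnitines, iron, glutathione, NAD or nucleotides. In macrophages these exchanges connect respiration with citrate export, redox balance and iron use, which shift between inflammatory and repair states.

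The Wt library held 3290 barcodes and 15392330 UMIs, the Gata3KO library 3434 barcodes and 19422237 UMIs, and 2 barcodes occurred in both. The limit of 10% mitochondrial UMIs left 990 Wt and 650 Gata3KO cells, and 408 and 398 of these formed the class of monocytes and macrophages, with medians of 8841 and 17227 UMIs per cell. *Gata3* itself had 4 UMIs in the kept cells of Wt and 1 in those of Gata3KO, too few to check the deletion. With 1 library per genotype there was no replicate and no test, so differences between the libraries cannot be told apart from differences between animals or preparations. Levels are UMIs per 1000000 of the cells' summed UMIs (CPM), and intervals are exact, at the 95% level, and cover counting error only. Each molecule gives 1 tag whatever its length, so CPM can be set side by side between genes, apart from how well each 3' end is captured.

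The cells fell into these states. Cluster 0 (118 Wt and 193 Gata3KO cells) was lipid-handling macrophage-like and was led by *Gpnmb*, *Fabp5*, *Ctsd* and *Spp1*. Cluster 4 (70 and 170 cells) took the same name from its markers and was led by the inflammatory and stress genes *Cxcl2*, *Gdf15*, *Hmox1* and *Ier3*. Its cells were unlike in the 2 libraries. The monocyte markers *Ly6c2* and *Ccr2* stood there at 1199 and 433 CPM in Wt but at 148 and 220 in Gata3KO. The macrophage markers *C1qa* and *Adgre1* stood at 927 and 196.5 CPM in Wt and at 2229 and 403 in Gata3KO. Cluster 2 (220 and 35 cells) scored highest on the monocyte markers (0.82, macrophage markers 0.56) and was led by the interferon-induced genes *Iigp1*, *Gbp2* and *Oas3*. Its single markers were mixed. In Wt its *Ccr2*, at 897 CPM, was above the 433 of cluster 4, but its *Ly6c2*, at 260, was below the 1199 there. Its *C1qa* in Wt, at 3220 CPM, was as high as in cluster 0 (3061). The cells of clusters 2 and 0 were also unlike between the libraries. Cluster 2 had *Ly6c2* levels of 260 CPM for Wt but 1443 for Gata3KO, and *Ccr2* levels of 897 and 1459. Cluster 0 had *Gpnmb* levels of 2043 CPM for Wt but 4080.5 for Gata3KO, and *Ly6c2* levels of 169 and 400. There *Ccr2* was lower in Gata3KO, at 151 against 215, and *Adgre1* was 292 in both. These 3 clusters make up the class of monocytes and macrophages. Cluster 5a (33 and 70 cells), led by *Pgf*, *Dab2*, *Ccnb2* and *Mrc1*, scored as macrophages and was kept apart from a collagen-rich remainder, cluster 5b (34 and 22 cells). Cluster 3 (189 and 62 cells) was conventional dendritic cell 2-like, with *Cd209a*, and cluster 1 (223 and 84 cells) stayed unnamed because of its few UMIs. The genotypes filled these states unevenly, and differences by cluster are given for the leading members.

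A few carriers dominated the family. In monocytes and macrophages the ADP/ATP carrier *Slc25a5*, the phosphate carrier *Slc25a3* and the second ADP/ATP carrier *Slc25a4* held 60.6% of all Slc25 UMIs in Wt (interval 59.4 to 61.8) and 62.5% in Gata3KO (61.6 to 63.4). *Slc25a5* (ENSMUSG00000016319, chromosome X at 36795651 to 36798807 in mm10, plus strand) stood at 436 CPM (417 to 456) in Wt, and 452 for Gata3KO (436 to 468), a log2 ratio Gata3KO over Wt of 0.05 (-0.03 to 0.13). *Slc25a3* (ENSMUSG00000061904, chromosome 10 at 91116574 to 91124059, minus strand) stood at 357 (339 to 375) and 436 CPM (420 to 452). Its ratio of 0.29 (0.20 to 0.38) was the best-counted difference in the family and stayed positive under each of 13 other settings, between 0.15 and 0.43. *Slc25a4* (ENSMUSG00000031633, chromosome 8 at 46206797 to 46211284, minus strand) stood at 116 (106 to 126) and 129 CPM (121 to 138), a ratio of 0.16 whose interval reached 0.

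The family as a whole was slightly higher in Gata3KO, and the excess lay in these leading carriers. Summed over all members it stood at 1499 CPM for Wt, with 1627 for Gata3KO (log2 ratio 0.12, 0.07 to 0.16). Without *Slc25a5*, *Slc25a3* and *Slc25a4* the sum was 590 and 610 CPM (0.05, -0.02 to 0.12). Of the 39 shared members, 23 reached a mean of 10 CPM over both libraries and were compared singly. The lowest of them was *Slc25a25* at 13.6 CPM, and the highest of the 16 below the limit was *Slc25a16* at 9.39. No compared member was higher in Gata3KO by over 1.5 times, where 5.38% of the 7526 genes compared were, and 2 members (8.70%) were lower, where 7.49% of genes were. The members' median log2 ratio was 0.05 beside 0.04 for all genes compared, and 17 of the 23 intervals included 0.

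**Figure D1:**
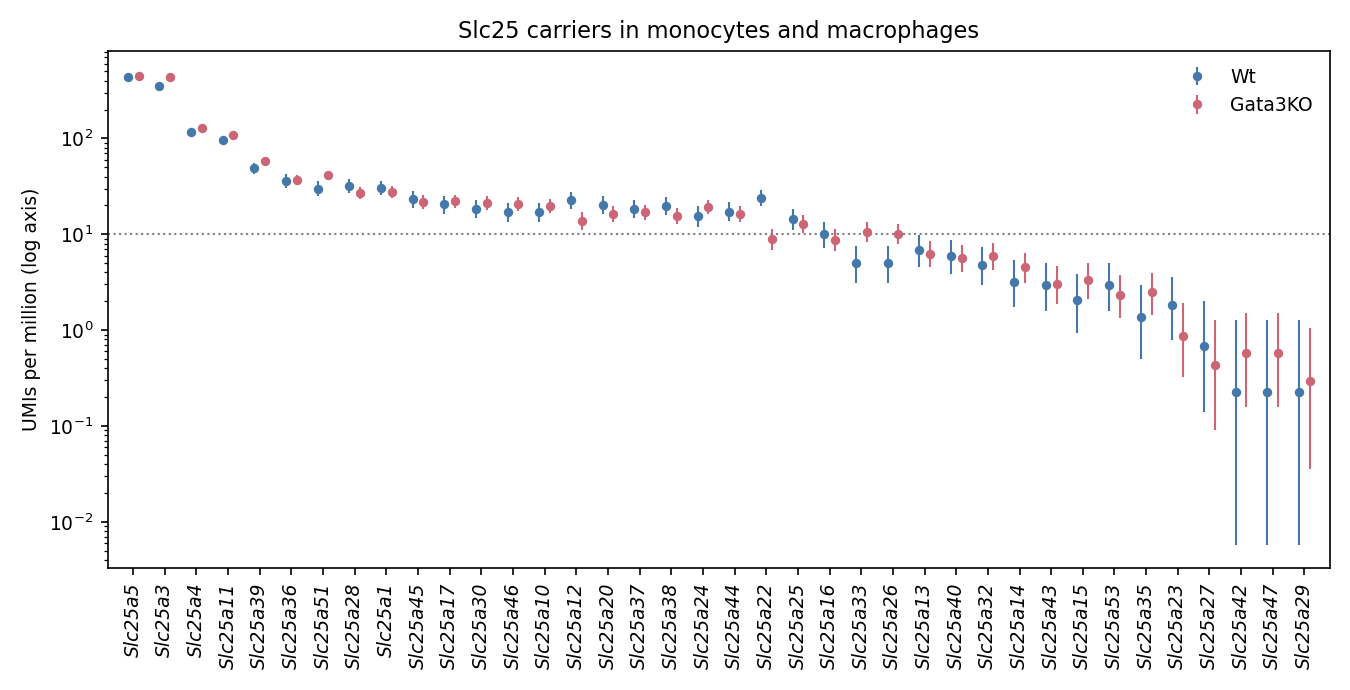
Level of the Slc25 members listed in both libraries, all but 1, in monocytes and macrophages, as CPM on a log axis, with 1 point for the Wt library and 1 for the Gata3KO library and 95% counting intervals. The dotted line marks the limit of 10 for a single comparison; *Slc25a5* and *Slc25a3* lie far above the other members, and *Slc25a22* is the member in the middle range whose points lie farthest apart.

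The largest difference belonged to the glutamate carrier *Slc25a22* (ENSMUSG00000019082, chromosome 7 at 141429744 to 141437892, minus strand), which brings glutamate into the matrix. It had 105 UMIs in Wt and 61 in Gata3KO, which is 23.9 CPM (19.5 to 28.9) against 8.90 (6.81 to 11.4). The level was 2.68 times as high in Wt (log2 ratio -1.42, -1.90 to -0.96), and it was negative under each of 13 other settings, between -1.68 and -0.74. The other member lower by over 1.5 times was *Slc25a12* (ENSMUSG00000027010, chromosome 2 at 71271063 to 71367749, minus strand), the aspartate/glutamate carrier of the malate-aspartate shuttle, at 22.8 CPM (18.5 to 27.7) and 13.9 (11.2 to 16.95). Its log2 ratio of -0.71 (-1.14 to -0.30) was also negative under all 13 settings, between -0.75 and -0.35. Both carriers have glutamate as a substrate, and they were the only compared members whose intervals lay below 0.

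*Slc25a22*, *Slc25a12*, *Slc25a33* and *Slc25a26* differed between the libraries by over 1.5 times with intervals clear of 0. The higher levels of *Slc25a33* and *Slc25a26* in Gata3KO are described further on. No window was matched for *Slc25a26*, so the start regions of the other 3 are shown. They are RefSeq windows of the GRCm38.p6 build, 250 bases before to 50 after the start, on the minus strand: *Slc25a12* at chr2:71367706-71368005, *Slc25a22* at chr7:141437825-141438124, chr7:141435326-141435625 and chr7:141434545-141434844 for its 3 listed starts, which 3' tags do not tell apart, and *Slc25a33* at chr4:149774218-149774517. Capitals mark matches to the CCAAT box and to the E-box CACGTG.
Slc25a12: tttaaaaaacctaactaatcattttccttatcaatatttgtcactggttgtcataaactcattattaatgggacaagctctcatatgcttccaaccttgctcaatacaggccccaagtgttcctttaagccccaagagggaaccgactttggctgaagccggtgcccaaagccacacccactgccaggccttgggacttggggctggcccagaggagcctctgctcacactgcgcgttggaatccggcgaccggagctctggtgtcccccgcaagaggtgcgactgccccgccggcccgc
Slc25a22 first start: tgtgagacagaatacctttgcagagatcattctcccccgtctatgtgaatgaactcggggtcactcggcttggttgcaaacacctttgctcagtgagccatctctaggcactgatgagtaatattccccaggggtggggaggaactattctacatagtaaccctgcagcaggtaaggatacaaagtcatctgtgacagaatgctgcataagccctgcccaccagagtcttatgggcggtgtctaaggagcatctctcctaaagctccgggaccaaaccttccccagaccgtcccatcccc
Slc25a22 middle start: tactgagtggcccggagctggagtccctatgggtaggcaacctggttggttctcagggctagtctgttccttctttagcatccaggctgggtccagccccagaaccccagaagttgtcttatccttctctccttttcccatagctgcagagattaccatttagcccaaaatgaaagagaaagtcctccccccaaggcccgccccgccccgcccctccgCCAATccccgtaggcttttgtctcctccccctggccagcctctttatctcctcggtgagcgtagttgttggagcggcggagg
Slc25a22 last start: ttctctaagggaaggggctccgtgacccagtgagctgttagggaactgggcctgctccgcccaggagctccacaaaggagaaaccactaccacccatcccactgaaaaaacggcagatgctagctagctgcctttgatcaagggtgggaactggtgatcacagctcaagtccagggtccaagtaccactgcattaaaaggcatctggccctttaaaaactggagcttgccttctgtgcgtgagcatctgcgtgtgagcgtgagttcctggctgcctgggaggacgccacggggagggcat
Slc25a33: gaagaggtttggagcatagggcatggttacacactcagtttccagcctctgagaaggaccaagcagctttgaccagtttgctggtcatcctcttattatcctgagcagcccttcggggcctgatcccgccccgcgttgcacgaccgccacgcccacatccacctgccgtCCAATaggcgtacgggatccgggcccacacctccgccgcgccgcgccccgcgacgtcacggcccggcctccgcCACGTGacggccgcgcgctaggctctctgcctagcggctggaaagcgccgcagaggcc

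Short motifs were searched on both strands of these windows, with overlaps between motifs allowed. RefSeq windows were matched for 32 of the 41 members, 41 windows in all. The letters CCAAT occurred in 37.4% of all 32817 windows and in 21 of the members' 41, among them the middle start of *Slc25a22* and the window of *Slc25a33*. The letters CACGTG occurred in 7.15% of all windows and in 8 of the members', that of *Slc25a33* included. For TGACGTCA the values were 1.79% of all windows and 2 of the members', for CCGGAAGT they were 3.89% and 1, and for TGACTCA they were 5.20% and 1. The window of *Slc25a12* and the first and last starts of *Slc25a22* held no match to any of them. These are letter matches alone.

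The lower *Slc25a22* level recurred inside most states. In cluster 4, whose monocyte and macrophage markers also differed between the libraries, it stood at 25.6 CPM in Wt against 7.87 in Gata3KO. These levels came from 24 UMIs each (log2 ratio -1.70, -2.58 to -0.82). In the unnamed cluster 1 it stood at 43.0 CPM (29 UMIs) and 9.44 (3 UMIs), a ratio of -2.19 (-4.55 to -0.50). The ratio was also negative in clusters 0, 2 and 3, at -0.64, -0.56 and -0.29, each with an interval that included 0. Markers differed between the libraries within clusters 0 and 2 as well, and their part in these ratios was not tested. Cluster 5a went the other way, with 3.83 CPM (2 UMIs) in Wt and 17.2 (20 UMIs) in Gata3KO (2.17, 0.13 to 5.31). The gene was thus lower in Gata3KO in 5 of the 6 states with at least 30 cells of each library, by intervals clear of 0 in 2 of them. Clusters 0, 2 and 4 make up the class in which the gene was picked for its ratio, so they are no separate support. Outside the class, clusters 1 and 3 had the same sign and cluster 5a the opposite one.

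The states of the class differed in their *Slc25a22* level and in their share of each library. *Slc25a22* was higher in the interferon-led cluster 2 than in cluster 0, at 32.4 against 13.5 CPM in Wt (log2 ratio 1.27, 0.54 to 2.04) and at 21.9 against 8.61 in Gata3KO (1.35, -0.09 to 2.56). In the class, cluster 2 made up 220 of 408 cells in Wt but 35 of 398 in Gata3KO. The monocyte markers summed to 2915 CPM in Wt and 1293 in Gata3KO within the class, with 9 of 9 found. Markers of conventional dendritic cells 2 summed to 253 and 77.2 CPM (7 of 7 found), and those of mature dendritic cells to 271 and 44.7 (7 of 8). Their part in the *Slc25a22* level was not tested. With the 3 clusters of the class weighted alike the ratio for *Slc25a22* was -0.91. After each cell was thinned to 2000 UMIs, 4.92% of 386 Wt cells (2.99 to 7.58) and 1.61% of 372 Gata3KO cells (0.594 to 3.48) had a *Slc25a22* UMI. Before thinning the shares were 19.6% and 13.8%, and after thinning to 1000 UMIs they were 2.00% and 1.79%, levels of a few cells. Carriers of this kind are used by all cell types, so no cell type of the sort served as a blank for these shares.

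**Figure D2:**
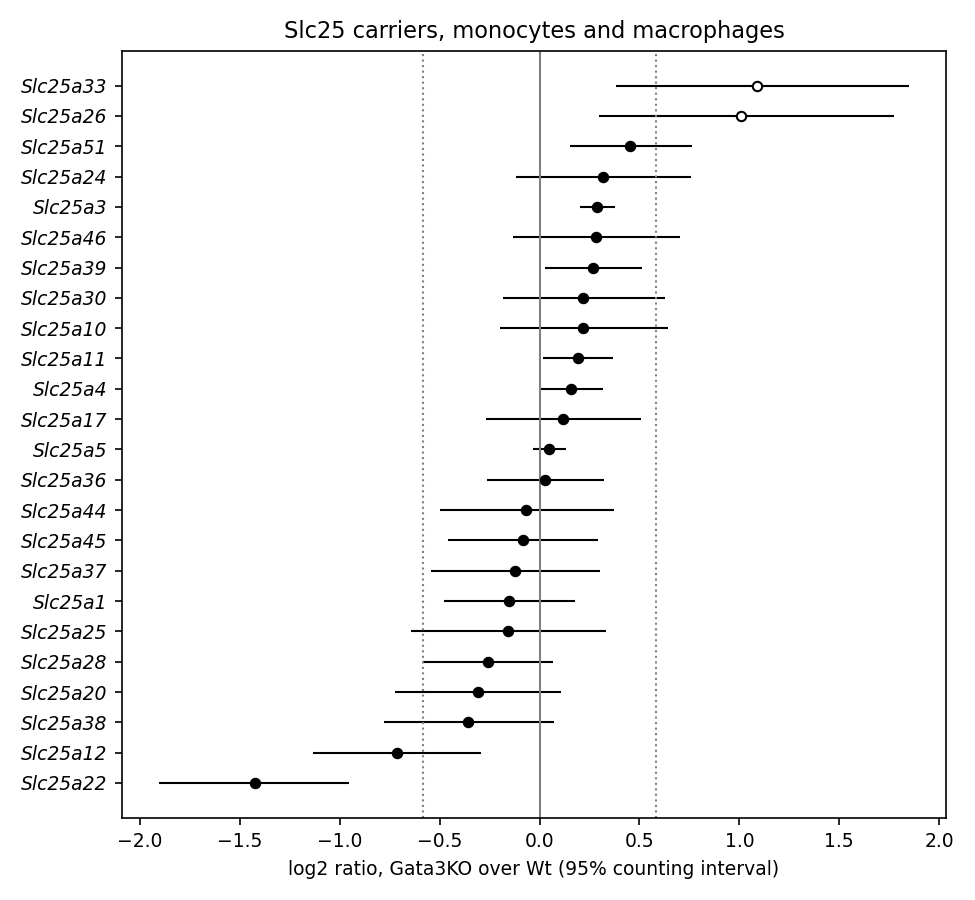
Log2 ratio Gata3KO over Wt in monocytes and macrophages for the compared members, all but 1 (filled), and for *Slc25a26* and *Slc25a33* (open), which are below the limit of 10 CPM; bars are 95% counting intervals and dotted lines mark 1.5-fold. *Slc25a22* and *Slc25a12* lie beyond the lower line, and no filled point lies beyond the upper line.

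The other compared amino acid carriers had smaller ratios. *Slc25a38*, a glycine carrier needed for haem synthesis, stood at 19.8 CPM (15.9 to 24.4) in Wt, and 15.5 for Gata3KO (12.7 to 18.7), a log2 ratio of -0.36 (-0.78 to 0.07). *Slc25a44*, a carrier of branched-chain amino acids, stood at 17.3 and 16.5 CPM. *Slc25a13*, the close relative of *Slc25a12*, had 30 and 43 UMIs, so *Slc25a12* made up 76.9% of the UMIs of the pair in Wt (68.7 to 83.9) and 68.8% in Gata3KO (60.4 to 76.4). Summed over the 7 amino acid carriers listed in both libraries, the role stood at 92.9 CPM in Wt against 64.7 in Gata3KO, the only one of the roles whose interval lay below 0 (log2 ratio -0.52, -0.72 to -0.32). *Slc25a22* and *Slc25a12* held most of this gap.

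Carriers of nucleotides, cofactors and vitamins were higher in Gata3KO when summed, at 126 and 153 CPM (log2 ratio 0.28, 0.13 to 0.43). *Slc25a51*, which carries NAD into mitochondria, had the largest positive ratio of the compared members. Its level was 30.04 CPM (25.1 to 35.6) in Wt, and 41.2 (36.5 to 46.3) in Gata3KO, a log2 ratio of 0.45 (0.15 to 0.76) that kept its sign under all 13 settings, between 0.21 and 0.59. Within the class the difference was seen in cluster 4, at 24.6 CPM (23 UMIs) against 50.8 (155 UMIs), a ratio of 1.05 (0.41 to 1.75). Cluster 0 had 37.9 and 33.9 CPM (-0.16, -0.62 to 0.30). The difference between these clusters was not tested. Nor was the part of the markers that differed between the libraries within clusters 0 and 4.

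The pyrimidine nucleotide carriers split. *Slc25a36* stood at 36.2 CPM (30.8 to 42.3) in Wt and 36.9 (32.5 to 41.8) in Gata3KO, a ratio of 0.03 (-0.26 to 0.32). Its relative *Slc25a33* (ENSMUSG00000028982, chromosome 4 at 149744036 to 149774277, minus strand) lay below the limit for comparison and is described because of its values: it had 22 UMIs in Wt and 73 in Gata3KO, 5.01 against 10.7 CPM, or 2.13 times as high (log2 1.09, 0.39 to 1.85). *Slc25a33* thus made up 12.2% of the UMIs of the pair in Wt (7.78 to 17.8) and 22.4% in Gata3KO (18.0 to 27.3). By cluster, the *Slc25a33* share was 32.4% and 31.6% in cluster 4 but 9.68% and 12.5% in cluster 0, in Wt and Gata3KO in turn. In cluster 2 it was 5.88% (1.94 to 13.2) and 25.0% (7.27 to 52.4), from 5 and 4 *Slc25a33* UMIs. Its level was higher in Gata3KO in each of these clusters, at 11.7 and 16.4 CPM in cluster 4, 3.67 and 5.46 in cluster 0 and 2.74 and 12.5 in cluster 2. In the class, cluster 4 made up 70 of 408 cells in Wt but 170 of 398 in Gata3KO. The part of this mix in the *Slc25a33* level was not tested. Nor was the part of the markers that differed between the libraries within clusters 0, 2 and 4.

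*Slc25a26* (ENSMUSG00000045100, chromosome 6 at 94500331 to 94604672, plus strand), which imports the methyl donor S-adenosylmethionine, was likewise below the limit and likewise named for its values. It had 22 UMIs in Wt and 69 in Gata3KO, 5.01 and 10.1 CPM (log2 ratio 1.01, 0.30 to 1.77). It and *Slc25a33* were the only members below the limit with an interval clear of 0, and both ratios were positive under all 13 settings. With no limit on the level, 6 of 39 members were higher in Gata3KO by over 1.5 times (all genes 9.33%) and 4 lower (18.0%), most of them on a few UMIs. Among the compared cofactor carriers, *Slc25a17*, the peroxisomal carrier of coenzyme A and other cofactors, stood at 20.5 and 22.2 CPM. *Slc25a16* had 44 and 60 UMIs, the mitochondrial folate carrier *Slc25a32* had 21 and 41, and the coenzyme A carrier *Slc25a42* had 1 and 4.

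Di- and tricarboxylate carriers differed little. *Slc25a11*, the oxoglutarate/malate carrier of the malate-aspartate shuttle, stood at 96.0 CPM (87.1 to 106) in Wt, and 109.6 for Gata3KO (102 to 118), a log2 ratio of 0.19 (0.02 to 0.37). That sign did not hold with cells thinned to 2000 UMIs, where the ratio was -0.09. The citrate carrier *Slc25a1* stood at 30.5 (25.6 to 36.1) and 27.4 CPM (23.7 to 31.7), a ratio of -0.15 (-0.48 to 0.18). The dicarboxylate carrier *Slc25a10* stood at 17.1 and 19.9 CPM. The acylcarnitine carrier *Slc25a20*, which admits fatty acids for oxidation, stood at 20.3 (16.3 to 24.9) and 16.3 CPM (13.5 to 19.7), a ratio of -0.31 (-0.72 to 0.11).

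Among the glutathione and iron carriers, the interval of 1 lay clear of 0. *Slc25a39*, a carrier of glutathione into mitochondria, stood at 48.7 CPM (42.4 to 55.7) in Wt, and 58.7 for Gata3KO (53.1 to 64.7), a log2 ratio of 0.27 (0.03 to 0.51). Its relative *Slc25a40*, below the limit, had 26 and 39 UMIs and a ratio of -0.06 (-0.81 to 0.72), so *Slc25a39* held 89.2% and 91.2% of the pair. The mitoferrins *Slc25a28* and *Slc25a37* bring iron into mitochondria for haem and iron-sulphur clusters. *Slc25a28* stood at 32.3 (27.2 to 38.1) and 27.0 CPM (23.3 to 31.2), a ratio of -0.26 (-0.58 to 0.07), and *Slc25a37* at 18.4 and 16.9 CPM. *Slc25a28* held 63.7% of the mitoferrin UMIs in Wt and 61.5% in Gata3KO.

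Other members filled in the middle of the range. The calcium-regulated ATP-Mg/phosphate carrier *Slc25a24* stood at 15.5 CPM (12.02 to 19.6) and 19.3 (16.1 to 22.9), a log2 ratio of 0.32 (-0.12 to 0.76). Its relative *Slc25a25* stood at 14.3 (11.02 to 18.3) and 12.8 (10.3 to 15.8), a ratio of -0.16 (-0.64 to 0.33). *Slc25a46*, a protein of the outer membrane linked to mitochondrial shape, stood at 17.1 (13.4 to 21.4) and 20.7 (17.5 to 24.4), a ratio of 0.28 (-0.13 to 0.70). *Slc25a30*, related to the uncoupling proteins, stood at 18.4 and 21.5 CPM, and *Slc25a45* at 23.2 (18.9 to 28.2) and 21.9 (18.5 to 25.7), a ratio of -0.08 (-0.46 to 0.29). None of these intervals was clear of 0. The members not yet named, *Slc25a14*, *Slc25a15*, *Slc25a23*, *Slc25a27*, *Slc25a29*, *Slc25a35*, *Slc25a43*, *Slc25a47* and *Slc25a53*, had between 1 and 31 UMIs in a library. *Slc25a31* had 2 UMIs in Wt, and *Slc25a34* had 4 in Gata3KO.

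Within single states the counts of members past 1.5-fold were mostly near those of all genes. In cluster 0, 2 of 24 were higher in Gata3KO (all genes 4.96%) and 2 lower (6.49%). In cluster 4, 2 of 24 were higher (14.0%) and 4 lower (10.7%), in cluster 2, 3 of 24 were higher (14.5%) and 3 lower (15.7%), and in cluster 3, 2 of 25 were higher (10.7%) and 1 lower (16.8%). In cluster 1, 3 of 22 were higher (21.2%) and 6 lower (17.4%). Cluster 5a had the highest share, with 8 of 23 higher (34.8%, all genes 15.2%) and 2 lower (13.4%). The 8 were *Slc25a1*, *Slc25a10*, *Slc25a20*, *Slc25a22*, *Slc25a37*, *Slc25a39*, *Slc25a45* and *Slc25a51*, and of these the intervals of *Slc25a22* and *Slc25a39* were clear of 0.

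The macrophages of cluster 5a carried more phosphate and glutathione carrier transcript in Gata3KO. *Slc25a3* stood there at 430 CPM (225 UMIs) in Wt, and 549 for Gata3KO (638 UMIs), a log2 ratio of 0.35 (0.13 to 0.58). *Slc25a39* stood at 42.1 (22 UMIs) and 75.8 CPM (88 UMIs), a ratio of 0.85 (0.16 to 1.59). *Slc25a5* was lower, at 572 and 473 CPM (-0.27, -0.48 to -0.07). The cell-cycle genes *Mki67* and *Stmn1* also differed in this cluster, at 184 and 68.9 CPM for *Mki67* and 486 and 217 for *Stmn1*. So did the macrophage markers *Mrc1*, at 157 and 663 CPM, and *Adgre1*, at 314 and 573, while *C1qa* stood at 3592 and 3796. The median mitochondrial share was 6.18% in Wt and 3.83% in Gata3KO. The part of these differences in the carrier ratios was not tested. Within the class, *Slc25a3* had a ratio of 0.29 (0.15 to 0.43) in cluster 0, 0.03 (-0.14 to 0.20) in cluster 4 and 0.13 (-0.18 to 0.43) in cluster 2, and outside it 0.17 (-0.09 to 0.42) in cluster 3 and -0.16 (-0.65 to 0.31) in cluster 1. *Slc25a12* stood at 20.2 and 11.8 CPM in cluster 0 (-0.78, -1.47 to -0.07), at 25.6 and 15.7 in cluster 4 (-0.70, -1.44 to 0.07) and at 23.6 and 18.8 in cluster 2 (-0.33, -1.85 to 0.91). Outside the class its ratio was -0.35 (-1.63 to 0.80) in cluster 3, -0.69 (-1.69 to 0.33) in cluster 5a and 1.08 (-0.66 to 2.83) in cluster 1. Markers also differed between the libraries within clusters 0, 2 and 4. Their part in the *Slc25a3* and *Slc25a12* ratios was not tested.

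**Figure D3:**
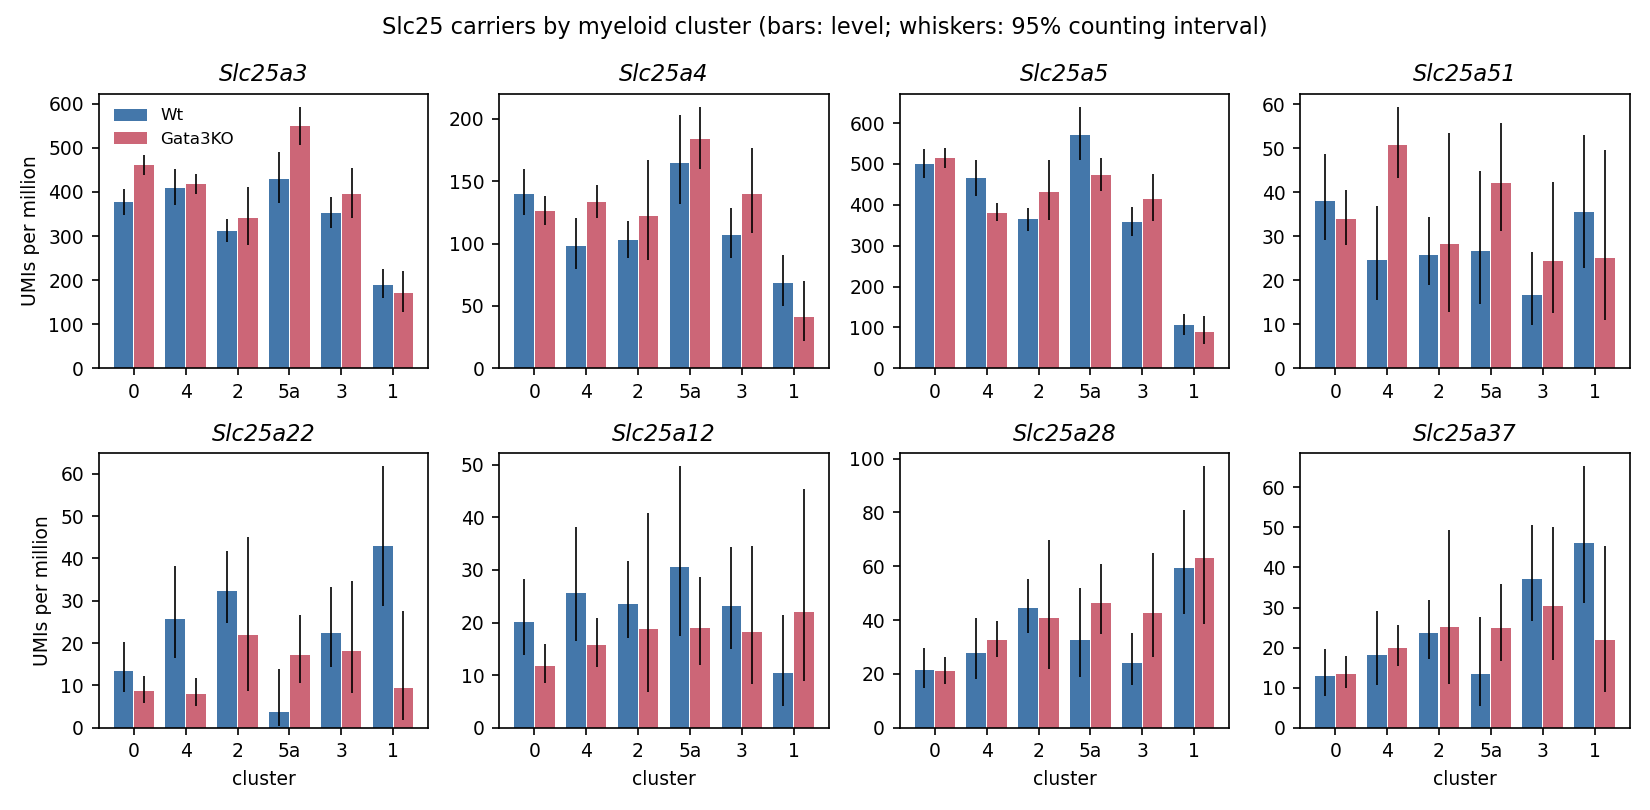
Level of 8 carriers in CPM (bars, from 0) in each of 6 clusters and both libraries, with 95% counting intervals. *Slc25a22* is lower in Gata3KO in every cluster but 5a, *Slc25a51* is higher in Gata3KO in cluster 4, and cluster 1 has the lowest *Slc25a5* and the highest *Slc25a28*.

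The ADP/ATP carriers had opposite ratios in cluster 4. Monocyte and macrophage markers also differed between the libraries in this cluster, and their part in these ratios was not tested. *Slc25a4* stood at 98.3 CPM for Wt, with 133 for Gata3KO (log2 ratio 0.44, 0.11 to 0.78), and *Slc25a5* at 465 and 381 (-0.29, -0.45 to -0.12). The *Slc25a4* share of the UMIs of the pair was 17.5% in Wt and 25.9% in Gata3KO. Over the class it was 20.9% and 22.2%. Both genes have close relatives in the genome, so the split depends on how the reads were assigned.

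Over the clusters the *Slc25a4* share ranged from 17.5% to 52.7%. *Slc25a4*, the form that prevails in heart and skeletal muscle, held 42.4% of the pair in Wt and 38.5% in Gata3KO in the collagen-rich cluster 5b, which also had cell-cycle transcript (*Mki67* at 570 and 647 CPM). In the cluster with muscle transcripts it held 48.4% and 52.7%, there from 31 and 4 cells. In the unnamed cluster 1 it held 39.3% and 31.7%, and in cluster 6, with markers of mature dendritic cells, 33.1% and 34.6%. In cluster 5b the level of *Slc25a4* was 512 CPM for Wt, with 365 for Gata3KO, against 116 and 129 in the class (log2 ratios 2.15, 1.96 to 2.33, and 1.501, 1.29 to 1.71). *Slc25a5* was higher there by less, at 695 and 583 CPM (0.67 and 0.37). Of 23 members, 4 were higher in cluster 5b than in the class by over 1.5 times in both libraries (all genes 20.9%), *Slc25a4*, *Slc25a10*, *Slc25a24* and *Slc25a46*, and 2 were lower (10.8%), *Slc25a1* and *Slc25a22*. The intervals of *Slc25a46* in Wt and of *Slc25a1* and *Slc25a22* in Gata3KO included 0. The skeletal muscle markers summed to 167 CPM in Wt against 56.6 in Gata3KO within the class. Of these, 7 of 8 were found, with *Pax7* at 0 in both libraries, and their part in the *Slc25a4* level was not tested.

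**Figure D4:**
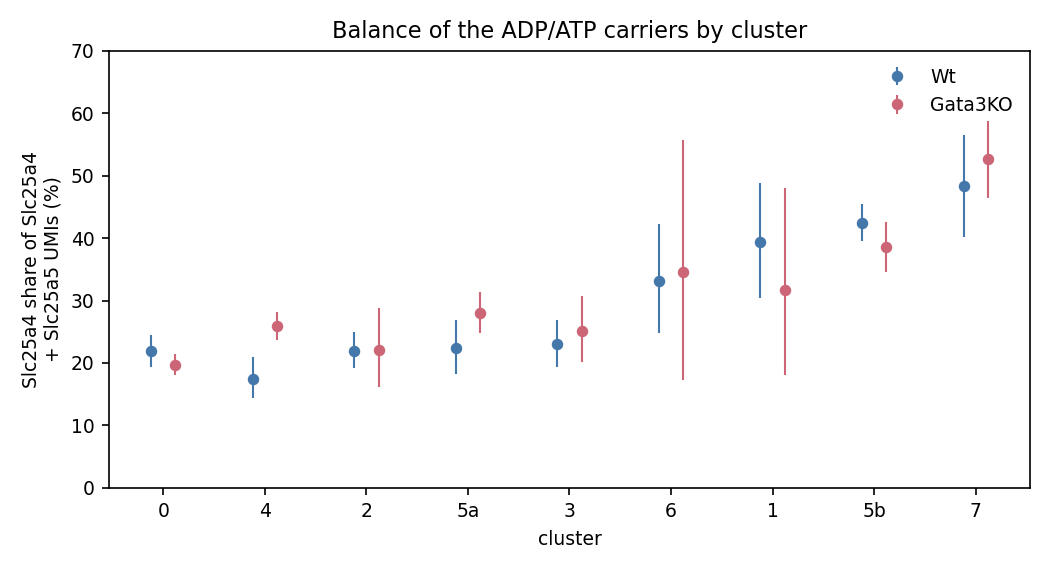
Share of *Slc25a4* in the summed UMIs of *Slc25a4* and *Slc25a5*, in percent, by cluster and library, with exact 95% intervals. The shares lie below 30% in clusters 0, 4, 2, 5a and 3 and at 38.5% or above in cluster 5b and in cluster 7, which has muscle transcripts; those of clusters 1 and 6 lie between 31.7% and 39.3%.

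The dendritic cell-like cells of cluster 3 were compared with the class. Against monocytes and macrophages, 5 of 24 members were higher in cluster 3 by over 1.5 times in both libraries (all genes 14.6%) and 2 were lower (13.1%). Of the members named here only *Slc25a17* and *Slc25a38* had intervals clear of 0 in both libraries. The higher ones included *Slc25a16* and *Slc25a17*, which carry cofactors, and *Slc25a37* and *Slc25a38*, which serve haem synthesis. *Slc25a38* stood at 33.4 CPM in cluster 3 against 19.8 in the class in Wt (log2 ratio 0.76, 0.15 to 1.33) and at 38.5 against 15.5 in Gata3KO (1.31, 0.53 to 2.03). *Slc25a17* stood at 37.1 against 20.5 and at 38.5 against 22.2 CPM (0.86, 0.28 to 1.41, and 0.79, 0.02 to 1.49). *Slc25a10* and *Slc25a51* were the lower ones, *Slc25a51* at 16.7 against 30.04 CPM in Wt and 24.3 against 41.2 in Gata3KO. The counts behind the Gata3KO values were small, between 4 and 19 UMIs for these 7 members.

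The macrophage states were also compared with each other. Between cluster 4 and cluster 0 none of the 23 compared members differed by over 1.5 times in the same direction in both libraries, where 5.66% of genes were higher and 2.58% lower. Below the limit, *Slc25a33* was higher in cluster 4, at 11.7 against 3.67 CPM in Wt (log2 ratio 1.68, 0.12 to 3.40) and 16.4 against 5.46 in Gata3KO (1.59, 0.80 to 2.43). *Slc25a35* and *Slc25a40*, also below it, were lower by over 1.5 times with intervals that included 0. In cluster 2 against cluster 0, 4 of 23 were higher (all genes 9.49%) and 1 lower (7.45%). The higher ones were both mitoferrins, *Slc25a22* and *Slc25a44*, and the lower one was *Slc25a46*. The intervals of *Slc25a44* and *Slc25a46* included 0 in both libraries. *Slc25a28* stood at 44.4 against 21.4 CPM in Wt (log2 ratio 1.05, 0.47 to 1.67) and at 40.7 against 21.0 in Gata3KO (0.96, -0.02 to 1.82). *Slc25a37* stood at 23.6 against 12.8 CPM and at 25.0 against 13.5. In cluster 5a, *Slc25a12* and *Slc25a28* were higher than in cluster 0 by over 1.5 times in both libraries (2 of 23, all genes 5.91%) and none was lower (5.79%). The intervals of *Slc25a12* in both libraries and of *Slc25a28* in Wt included 0.

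The cells with few UMIs had a lower summed level of the family. In cluster 1 the family summed to 946 CPM (874 to 1023) in Wt, and 802 for Gata3KO (707 to 907), against 1574 and 1697 in cluster 0. Of 23 members, 8 were lower than in the class in both libraries (all genes 29.0%) and 2 were higher (8.61%). The main ADP/ATP carrier *Slc25a5* was among them, at 105 against 436 CPM in Wt (log2 ratio -2.05, -2.41 to -1.71) and 88.1 against 452 in Gata3KO (-2.36, -2.95 to -1.82). *Slc25a28* and *Slc25a36* were the higher ones, *Slc25a28* at 59.3 against 32.3 and 62.9 against 27.0 CPM (0.88 and 1.22). The median depth of cluster 1 was 2634 UMIs per cell and its median mitochondrial share was 7.46%, and the part of cell quality in this profile was not tested.

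The levels of the same carriers also differed with the mitochondrial share of a barcode. Every deposited barcode was placed in 1 of 5 ranges of that share, and levels were taken per 1000000 non-mitochondrial UMIs. *Slc25a5* stood at 481 in Wt and 503 in Gata3KO among barcodes with at most 5% mitochondrial UMIs, and at 225 and 130 among those over 30% (log2 ratios -1.10, -1.32 to -0.88, and -1.95, -2.17 to -1.74). *Slc25a28* went from 29.2 to 81.7 in Wt and from 33.4 to 94.7 in Gata3KO (1.48, 1.05 to 1.91, and 1.502, 1.18 to 1.82). *Slc25a37* went from 21.5 to 53.7 and from 16.7 to 71.5 (1.32 and 2.10), and *Slc25a36* from 33.1 to 64.2 and from 36.0 to 96.1 (0.96 and 1.42).

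Over those extreme ranges, 4 of 23 members were higher by over 1.5 times in both libraries (all genes 30.2%) and 1, *Slc25a5*, was lower (14.4%). The fourth higher one was *Slc25a25*, at 14.4 and 39.7 in Wt and 14.0 and 33.4 in Gata3KO. *Slc25a4* differed between the libraries here, from 166 to 211 in Wt (log2 ratio 0.35, 0.10 to 0.58) and from 159 to 103 in Gata3KO (-0.63, -0.89 to -0.38), and it was not tested. *Slc25a22* was lower in Gata3KO in all 5 ranges, at 21.1 against 10.9 in the lowest and 44.4 against 16.4 in the highest. The ranges mix all cell types, and which types fill each range was not compared. The median depth was 9491 UMIs in Wt and 16422 in Gata3KO at up to 5%, but 2089 and 2608.5 over 30%. The part of depth and cell quality in these levels was not tested.

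**Figure D5:**
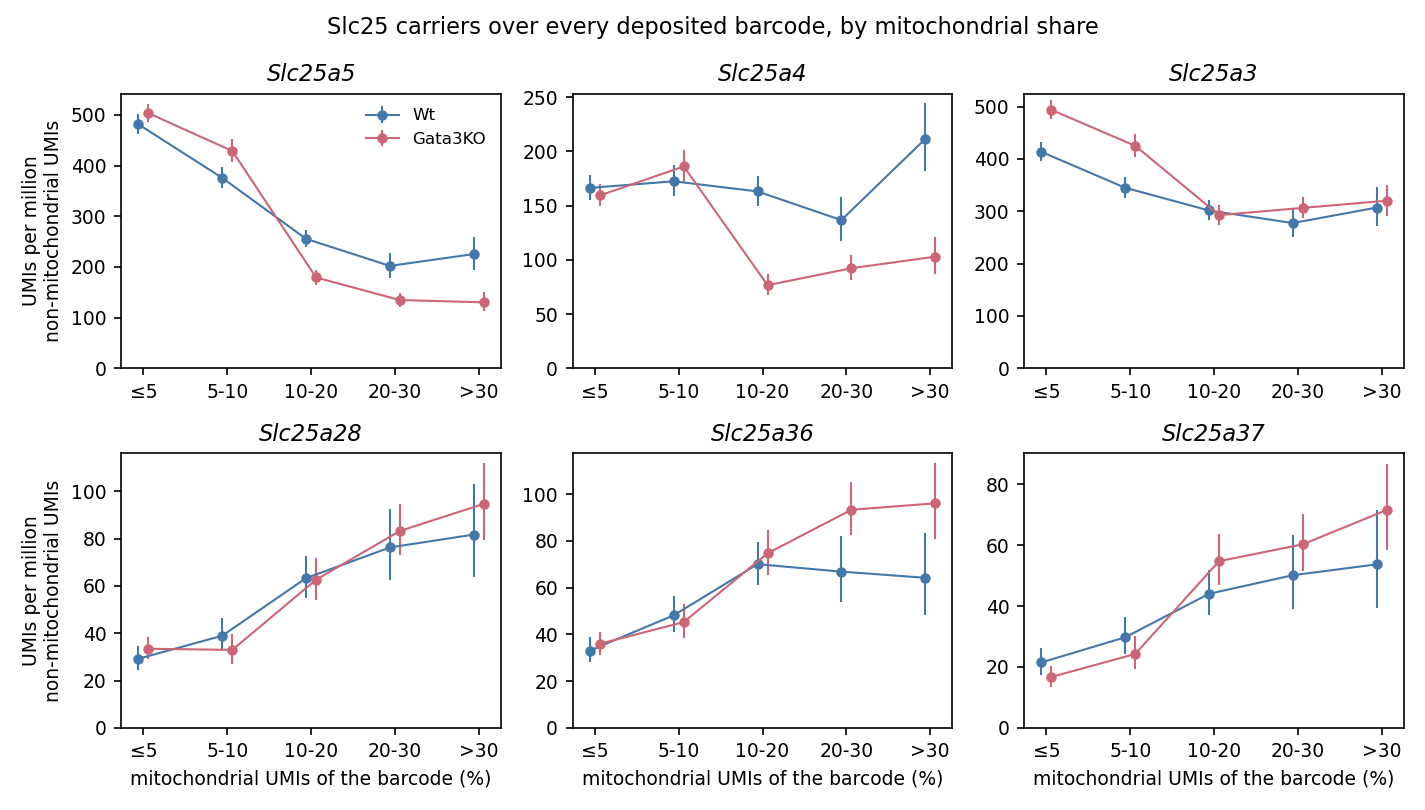
Level of 6 carriers per 1000000 non-mitochondrial UMIs over every deposited barcode, by the barcode's share of mitochondrial UMIs, with 95% counting intervals and 1 line per library. *Slc25a5* is lowest above 20% in both libraries, and *Slc25a28*, *Slc25a36* and *Slc25a37* are higher above 10% than at or below 5%.

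Genes that work beside the carriers were compared in monocytes and macrophages by lists. Their values pool the 3 clusters of the class and are not given by cluster. Cluster 2 held 220 of the 408 Wt cells of the class but 35 of the 398 Gata3KO cells, and cluster 4 held 70 and 170. The part of this unlike mix in the ratios of these genes was not tested. Of other transport genes of the mitochondrial membranes, 10 reached 10 CPM, all 10 had ratios above 0 (all genes 55.5%), and none passed 1.5-fold, with a median log2 ratio of 0.31. Among them *Mtch1*, a carrier-like protein of the outer membrane, was highest at 90.4 and 128 CPM (0.50, 0.33 to 0.67), the pore *Vdac1* stood at 104 and 147 (0.49, 0.33 to 0.65), and *Vdac3* was lowest at 0.02. The uncoupling protein *Ucp2* stood at 556 and 579 CPM, above each Slc25 member. Machinery that imports carriers gave 6 of 12 ratios above 0 and a median of 0.01, with *Timm13* highest at 0.17 and *Tomm70a* lowest at -0.45 (-0.72 to -0.18).

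Over all genes compared, 5.38% were higher by over 1.5 times and 7.49% lower. Partners of the shuttles gave 1 of 8 higher, *Got1*, the cytosolic aspartate aminotransferase, at 56.2 and 85.1 CPM (log2 ratio 0.60, 0.38 to 0.82), while citrate synthase *Cs* was lowest at -0.20. Acylcarnitine partners gave 1 of 5 higher, the carnitine acetyltransferase *Crat*, at 23.9 and 38.2 CPM (0.68, 0.35 to 1.02). Iron and haem genes gave 2 of 8 higher, among them ferrochelatase *Fech* at 0.70 (0.25 to 1.16), while the first haem enzyme *Alas1* was lowest at -0.40 (-0.60 to -0.19).

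Glutathione genes had the highest median of the lists in the pooled class, beside the modest ratio of *Slc25a39*. Of 6, 3 were higher by over 1.5 times (all genes 5.38%) and none lower (7.49%), with a median of 0.51. *Gclm*, a subunit of the enzyme that limits glutathione synthesis, stood at 33.2 CPM for Wt, with 121 for Gata3KO (log2 ratio 1.86, 1.61 to 2.13). Glutathione reductase *Gsr* stood at 25.9 and 51.2 CPM (0.98, 0.67 to 1.30), and *Gss* was lowest at -0.29 (-0.77 to 0.20). Of the folate list only *Mthfd2*, a mitochondrial enzyme of the folate cycle, reached the limit, and it was lower in Gata3KO at 26.9 and 9.93 CPM (-1.44, -1.89 to -0.99), about as far below Wt as *Slc25a22*.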

How the data were processed

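The deposited files hold 1 table of UMI counts per gene and barcode for each library, made by the authors and not normalized. The submitters' processing notes name the build mm10, R 3.6.1, Seurat 3.0.2 and Cell Ranger 3.0.1. The authors' filters are not stated there. Per the labels' protocols 8000 cells of each genotype were loaded.

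Cells with at least 500 UMIs, 200 genes and at most 10% mitochondrial UMIs were scaled to 10000 per cell, logged and clustered jointly without integration (scanpy 1.11.5, scikit-learn 1.9.0, leidenalg 0.10.2, igraph 0.11.9) on 2000 variable genes, 30 components, 15 neighbours and resolution 0.6. The Slc25 members were left out of the variable genes. A cluster was named from its highest-scoring marker list, with at least 3 markers found, both of the list's first markers present and a score of at least 0.15; this rule was set after seeing the clusters. The collagen-rich cells of cluster 5 were set apart at resolution 1.2, also after seeing them. Scrublet called 1 Wt and 6 Gata3KO doublets, which were left in.

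UMIs were summed per library and cluster and given as CPM. Sums have exact Poisson intervals, shares exact Clopper-Pearson intervals and log2 ratios exact conditional binomial intervals (Python 3.11.15 with pandas 2.3.3, scipy 1.17.1 and numpy 2.4.6). Only the interval of the log2 ratio was checked on simulated data, with counts drawn from the Poisson model and no variation between cells. Clustering, naming and thinning were not checked in this way. Gene positions come from the GENCODE annotation of the same build. Cells of 1 library are not replicates. The members and lists were chosen with earlier results of these data known. In full are given the 10 members with the highest mean CPM and the 6 largest ratios each way at a mean of 10 CPM, and from the lists at most 2 genes at each end; the others are given by level or UMIs. A planned comparison of paralogous proteins was not made here. Of the genes these rules select, 1 member and 1 list gene are not reported here; the counts include them.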

Additional observations from a re-analysis of the deposited data

Results flagged for a closer look

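*Slc25a22* had opposite signs in different clusters. Its log2 ratio Gata3KO over Wt was 2.17 in cluster 5a, from 2 Wt and 20 Gata3KO UMIs, against -2.19 in cluster 1 (29 and 3 UMIs) and -1.70 in cluster 4 (24 and 24 UMIs). The counting interval lay on 1 side of 0 in each of these clusters, and the difference between the clusters was not tested.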

How the results depend on the processing

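The alternatives were other cell filters, resolutions, scalings, weightings and level filters, with cluster 5a included in the class as an alternative added after seeing the data. Of 325 ratios of 25 members under 13 settings, 299 stayed within their counting interval, 25 moved beyond it, and 1 whose interval had been clear of 0 took the other sign, *Slc25a11*, at -0.094 with cells thinned to 2000 UMIs. Members whose interval included 0 also took either sign, among them *Slc25a1*, *Slc25a36*, *Slc25a37* and *Slc25a45*. The number of members lower by over 1.5 times, 2 in the class, was 1 with a mitochondrial limit of 20%, with every barcode, with all kept cells and with cluster shares held equal, 4 with thinned cells and with no filter, and 0 at 50 CPM or more. The number higher, 0, was 1 at resolution 0.3, with every cell weighted alike and with thinned cells, and 6 with no filter, where 9.33% of genes were higher and 18.0% lower. The ratio of the summed family, 0.118, was 0.060 at 1000 UMIs or more and at most 5% mitochondrial UMIs, 0.048 with every barcode and 0.219 with every cell weighted alike; the cause was not tested. The single ratios of *Slc25a5* and *Slc25a28* took either sign, from -0.12 to 0.27 and from -0.95 to 0.22. With the members left among the variable genes, cluster 0 had 1 lower in place of 2, cluster 3 had 4 higher in place of 2 and 2 lower in place of 1, and cluster 4 had 4 higher in place of 2. Median-of-ratios scaling moved all genes by 0.039. The compared members other than the 3 leading ones rest on 61 to 751 UMIs a library, which limits what can be detected at under 1.5-fold. No paired analysis was possible because each genotype has 1 library.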
